A study of Caenorhabditis elegans with 4 samples.

Results

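The genes described here encode the nuclear pore and the nuclear transport machinery of the nematode Caenorhabditis elegans, and the question is how MRG-1 peaks lie over them in adult animals. They were chosen as all protein-coding genes whose symbol starts with npp-, imb-, ima-, xpo- or ran-, which gave 41 genes of 19971 protein-coding genes on the 6 chromosomes. The study mapped the chromodomain protein MRG-1 by chromatin immunoprecipitation and sequencing (ChIP-seq) in 2 ChIP samples and sequenced 2 input samples. All 4 samples were fem-2(b245)III hermaphrodites grown at 20 °C and labelled as young adults that contain a germline, although the growth protocol speaks of gravid adults. The fem-2(b245) allele, in a gene of the sex determination pathway needed for sperm, was thus carried by the input animals too, and no wild-type group is part of the design. The antibody was an affinity-purified rabbit polyclonal raised against MRG-1. Chromatin came from whole adults, so a peak does not say which tissue it came from, and many cells with little MRG-1 and few cells with much cannot be told apart.

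The values are 3 deposited peak lists: 2769 peaks in ChIP replicate 1, 3895 in replicate 2 and 12147 in a list for the whole series. They hold positions and a score for each peak but no read counts, so depth is unknown, and no values of the input samples are used here. Nothing in the labels ties the replicates to separate cultures, so their spread may be technical. A gene was marked in a list if a peak overlapped its span by at least 1 bp. Spans came from a RefSeq gene table on WBcel235, while peaks are on WormBase WS220. The builds were taken to differ by about 200 bp, which was not measured here, so positions are printed for peaks only. With 1 group and 2 replicates no difference between groups can be tested, and all counts below are descriptions.

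Nuclear pores are large assemblies of nucleoporins that cross the nuclear envelope. A symmetric scaffold holds a central channel lined by nucleoporins rich in phenylalanine-glycine repeats, with filaments on the cytoplasmic face and a basket on the nuclear face. Importins and exportins carry cargo through the channel, and the small GTPase Ran sets the direction of transport. Most of these proteins are used by every cell, and some importin alphas are known for work in the germline. MRG-1 belongs to the MRG15 family, whose chromodomain binds methylated histone H3, and the worm protein is known for its role in germ cells.

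MRG-1 peaks met most nuclear pore and transport genes, and in most of them at least 50% of the span lay under peaks in both replicates. In replicate 1, 33 of the 41 genes met a peak, where 30.2% of all protein-coding genes did. In replicate 2, 36 of the 41 did, against 28.1% of all genes. Both replicates marked 29 of the 41, or 70.7%, against 24.4% of all protein-coding genes and 28.1% of the autosomal ones. A single member, npp-26, met no peak in either replicate, where 66.2% of all genes met none. Taken alone, replicate 1 left 8 members unmarked and replicate 2 left 5. The median member had 100% of its span under peaks in replicate 1 and 94.96% in replicate 2, a mean of 97.5% ± 3.56 (SD, n = 2). The median over all protein-coding genes was 0% in each replicate.

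**Figure D1:**
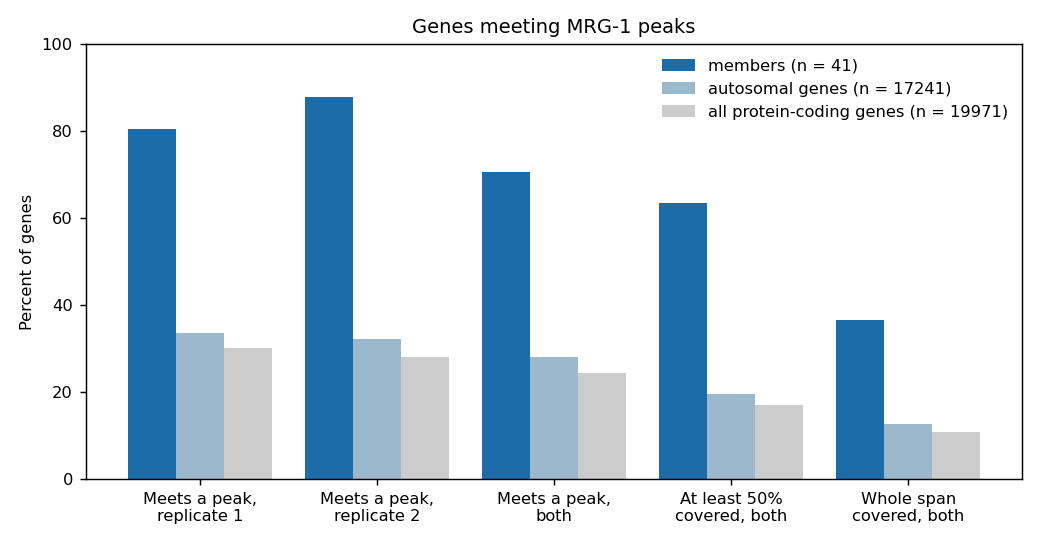
Bars give the percent of genes that met MRG-1 peaks under 5 rules, for the 41 nuclear pore and transport genes, all autosomal protein-coding genes and all protein-coding genes. Under the rule for both replicates the bars stand at 70.7%, 28.1% and 24.4%.

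Long genes meet a peak more easily, so the covered share and the span were set beside the counts. At least 50% of the span lay under peaks in both replicates in 26 members, or 63.4%, against 19.6% of autosomal genes. The whole span did in 15 members, or 36.6%, against 12.7%. Members ranged from 764 bp (ran-4) to 27904 bp (npp-8), with a median of 3915 bp. Among the 13 members under 2500 bp, 9 were marked in both replicates, and each of these 9 was covered over its whole span in both. Autosomal genes of that size were marked in both in 23.4% of cases and wholly covered in both in 16.5%. Of the 13 members from 2500 to 5000 bp, 8 were marked in both, against 32.4% of autosomal genes of that size. Of the 15 members over 5000 bp, 12 were, against 41.3%. The excess of marked members over autosomal genes was thus present in each range of span.

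Marked members lay on all 5 autosomes, in their middles and in their outer parts. No member is on X, which holds 13.7% of all protein-coding genes and where 1.14% of them were marked in both replicates. Chromosome I holds 13 members, II, III and IV hold 8 each, and V holds 4. Both replicates marked 9 of 13 on I, where 39.5% of genes were marked, and 7 of 8 on II, where 28.1% were. They marked 5 of 8 on III against 39.8%, 4 of 8 on IV against 27.1%, and 4 of 4 on V against 16.1%. The middle 50% of the autosomes held 27 members and 19 of them were marked in both, or 70.4%, against 33.1% of autosomal genes there. In the outer parts 10 of 14 were, or 71.4%, against 21.9%.

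The Y complex, the outer scaffold of the pore, is the largest of the nucleoporin groups. Of its 8 genes, 7 were marked in both replicates, each over at least 50% of the span in both. Coverage was 100% in both replicates for npp-2 (the worm Nup85), npp-5 (Nup107), npp-10 (the precursor of Nup98 and Nup96), npp-15 (Nup133) and npp-23 (Nup43). For npp-6, the Nup160 gene, it was 100% in replicate 1 and 91.5% in replicate 2. The gene npp-20, which encodes the Sec13 homologue, had 94.3% and 58.2%, with 2 separate peaks in each replicate. The Seh1 gene npp-18 had 100% in replicate 1 and 0% in replicate 2, so it was the one member of the complex on which the replicates were opposed.

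The inner ring held both fully covered and thinly covered genes, and the thin ones were its longest. The Nup35 gene npp-19 was covered to 100% in both replicates, and the Nup205 gene npp-3 to 100% and 89.6%. The Nup155 gene npp-8, at 27904 bp, had peaks over 31.0% of its span in replicate 1 and 18% in replicate 2. The Nup93 gene npp-13, at 26098 bp, had 22.7% and 7.97%. These spans are the longest of the 41, and in each the peaks met 1 end of the span and not the other in both replicates. At npp-8 the end at higher coordinates lay under the strongest of its peaks, at bases 1592966 to 1604731 of IV in replicate 1 and 1593186 to 1598366 in replicate 2. At npp-13 it was the end at lower coordinates, under a replicate 1 peak at 2095926 to 2103281 of I. The gene table gives no strand, so whether a covered end is a promoter is not known here.

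The 3 channel nucleoporins of the Nup62 complex differed among themselves. The gene npp-1 (Nup54) was covered to 100% in both replicates. The gene npp-4, which encodes the Nup58 homologue, had 72.4% and 75.1% and was the only member marked in both that was covered more in replicate 2. That was 1 of 29 members (3.45%), close to the 4.08% of all genes marked in both. The Nup62 gene npp-11 had no peak in replicate 1 and 82.9% cover in replicate 2.

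On the cytoplasmic side the replicates were opposed at 2 of 3 genes. The Nup88 gene npp-24 was covered to 100% and 99.7%. The genes npp-9 (Nup358) and npp-14 (Nup214) each had 100% in replicate 1 and 0% in replicate 2. Of the basket genes, npp-16 (Nup50) was covered to 100% in both replicates and npp-21 (the TPR homologue) to 100% and 98.3%. The Nup153 gene npp-7 had 0% in replicate 1 and 90.5% in replicate 2.

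All 3 genes for membrane nucleoporins were marked in both replicates. Coverage was 100% and 100% at npp-22 (NDC1), 100% and 94.96% at npp-12 (gp210), and 99.6% and 56.2% at npp-25 (TMEM33). At npp-22 the peaks were close to the gene in extent, at bases 11730759 to 11734314 of V in replicate 1 and 11731036 to 11733938 in replicate 2. The gene before it, rhr-2, met no peak, and the gene after it, spe-42, was covered to 22.4% and 11.5%.

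**Figure D2:**
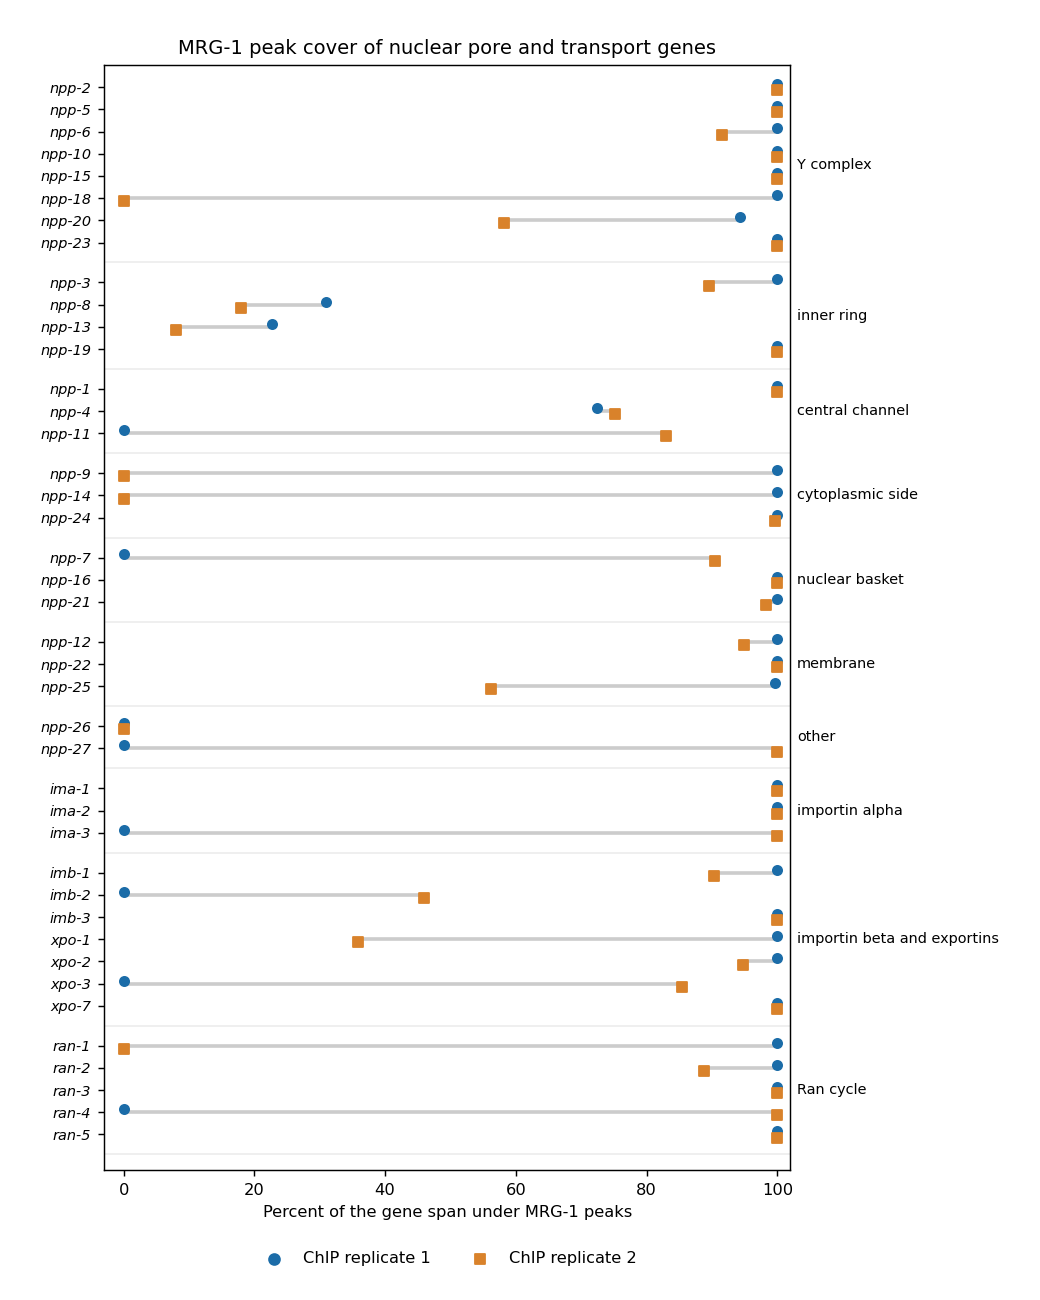
Each line is 1 of the 41 genes, grouped by role, and the x axis is the percent of its span under MRG-1 peaks in ChIP replicate 1 (circles) and replicate 2 (squares). Most pairs sit near 100%, 11 pairs have 1 replicate at 0%, and npp-26 has both at 0%.

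The importin alphas, adaptors that bind the nuclear localisation signal of cargo, are 3 genes in the worm. Both ima-1 and ima-2, whose expression is known to be limited to the germline, were covered over the whole span in both replicates. The ima-1 gene lay under a peak at bases 11236571 to 11246020 of V in replicate 1 and 11236505 to 11243944 in replicate 2. For ima-2 the peaks were at 6314301 to 6321079 of I and 6314544 to 6320667, with nearly the same edges in the 2 replicates. The third, ima-3, which is known to act in soma and germline, was covered to 0% in replicate 1 and to 100% in replicate 2 by a peak of 19910 bp. The nearest replicate 1 peak to ima-3 was 11977 bp away.

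Among the importin beta family and the exportins, 5 of 7 were marked in both replicates. Coverage was 100% in both replicates for imb-3, an importin of the importin 5 type, and for xpo-7, named as an exportin. The importin beta gene imb-1 had 100% and 90.3%. The gene xpo-2, whose product returns importin alpha to the cytoplasm, had 100% and 94.8%. The gene xpo-1, the worm CRM1 that exports proteins with a leucine-rich signal, had 100% in replicate 1 but 35.9% in replicate 2, where the peak ended inside the gene. The transportin gene imb-2 had no peak in replicate 1 and 46.0% cover in replicate 2. The tRNA exportin gene xpo-3 had none in replicate 1 and 85.5% in replicate 2. No gene of this family was without a peak in both.

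The Ran cycle genes were all covered in at least 1 replicate. The gene ran-3 encodes the nucleotide exchange factor of Ran (RCC1) and was covered to 100% in both replicates, as was ran-5, a Ran-binding protein. The GTPase-activating protein gene ran-2 had 100% and 88.7%. Ran itself, ran-1, lay wholly inside a replicate 1 peak of 28271 bp, at bases 10736077 to 10764347 of III, and met no replicate 2 peak within 14462 bp. The gene ran-4 encodes the NTF2 homologue, which imports Ran bound to GDP, and showed the opposite, with 0% in replicate 1 and 100% in replicate 2. Each of the 5 genes was met by a peak of the series-wide list, which covered between 93.3% and 100% of the span. That list met 40 of the 41 members and 32.7% of all protein-coding genes.

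**Figure D3:**
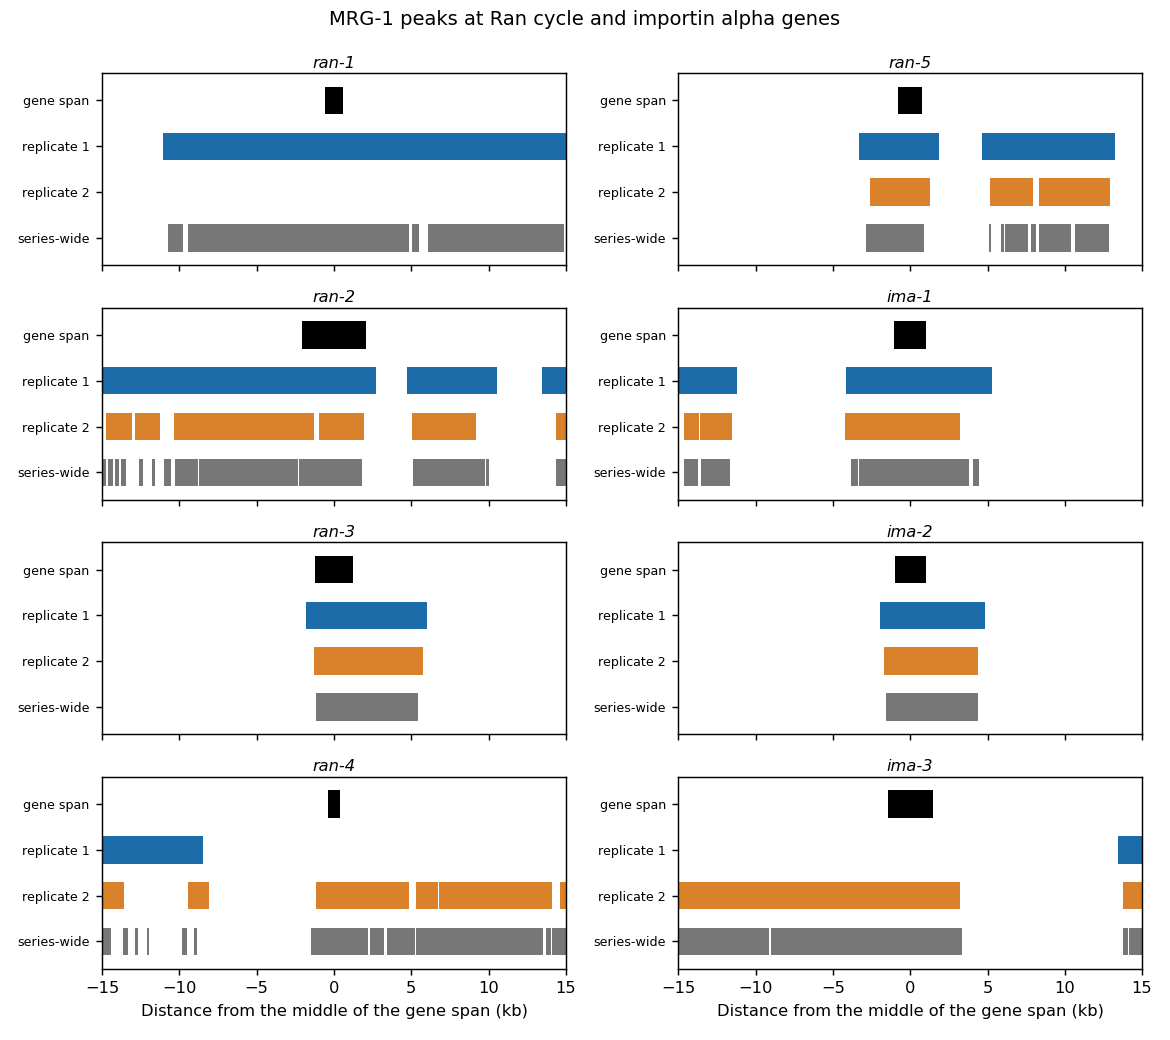
Bars show the gene span and the MRG-1 peaks of replicate 1, replicate 2 and the series-wide list around the 5 Ran cycle genes and the 3 importin alphas. The x axis is the distance from the middle of the span in kb, cut at 15 kb on each side. At ran-3 and ima-2 the lists share their edges closely, while the span of ran-1 has no peak over it in replicate 2, and those of ran-4 and ima-3 have none in replicate 1.

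Along the genes the share under peaks was level, and it was lower in the flanks. In replicate 1, between 73.2% and 78.0% of the 41 members lay under a peak at each of 20 points across the span. In replicate 2 this range was 70.7% to 80.5%. At 2850 bp beyond the lower and the higher end the share was 53.7% and 56.1% in replicate 1, and 51.2% and 41.5% in replicate 2. Autosomal genes stood between 25.3% and 27.7% across the span in replicate 1 and between 22.9% and 24.4% in replicate 2. Members thus lay under peaks about evenly along the span, and fewer did at 2850 bp beyond either end. Both ends of the span, each within a 500 bp window, met peaks in both replicates in 21 members, or 51.2%, against 14.7% of all genes. Where the last base of a span lay under a peak, the peak reached a median of 4241 bp past it in replicate 1 and 2679 bp in replicate 2.

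**Figure D4:**
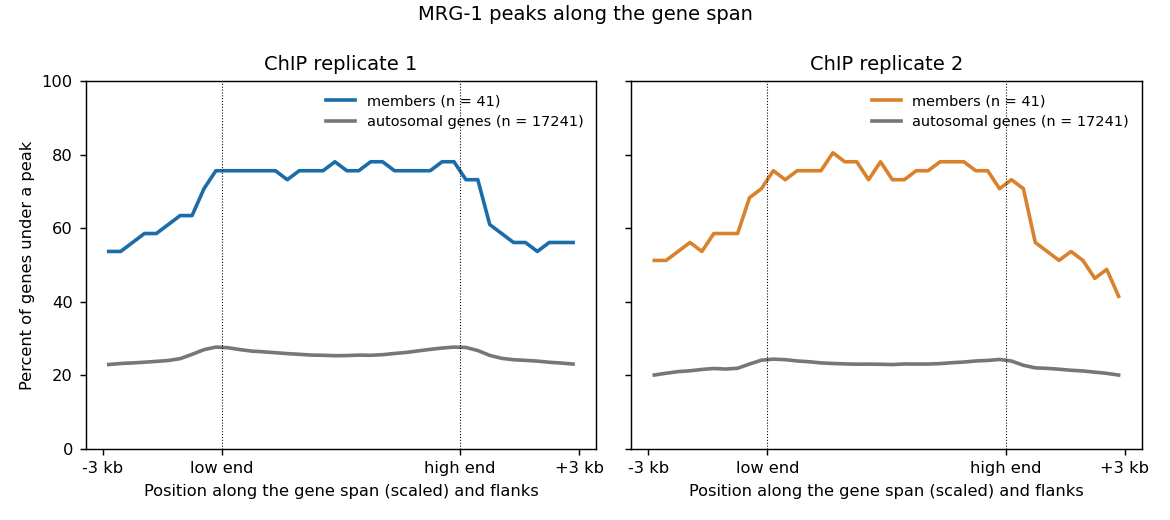
The y axis is the percent of genes under an MRG-1 peak, and the x axis runs along the span scaled to 20 bins with 3 kb of flank on each side. The coloured lines for the 41 members stay above 70% across the span and drop beyond its ends. The grey lines for autosomal genes stay below 28% and are also somewhat lower in the outer flanks. Low and high ends are by coordinate, since the strand is not given.

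The peaks at these genes were wide and took in their neighbours. Replicate 1 had 36 peaks at members, and their median width was 11266 bp, where all of its peaks had 4277 bp. A median of 4 protein-coding genes lay under each member peak, against 2 for all of its peaks. Replicate 2 had 49 peaks at members, with a median of 5257 bp against 2163 bp, and of 2 genes against 1. A wide peak meets more genes, which by itself raises the median width and gene count of peaks found through genes. Counting each peak once for every gene it met, the median was 11874.5 bp at members and 7919 bp at all protein-coding genes in replicate 1, and 5450 bp and 4130 bp in replicate 2. Some members shared a peak and so are not separate observations: imb-3 and xpo-2 lay under 1 peak at bases 310290 to 326512 of I in replicate 1, and npp-15 and ran-2 under 1 at 7920253 to 7938331 of III. The same pairs shared a peak in replicate 2.

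Genes next to the members were often marked too, though in smaller shares than the members. The 78 distinct protein-coding genes that flank the members and are no members had 42 marked in both replicates, or 53.8%, and 16 marked in neither, or 20.5%. At least 50% of the span was covered in both replicates in 37.2% of them. These shares lie between those of the members and those of all genes, and the difference was not tested. At some members the peaks ended before the neighbouring gene. The genes npp-5 and npp-19 were covered to 100% in both replicates, while the genes after them, F07A11.4 and ceh-62, had 0% in both. The gene before ran-3, the potassium channel gene shw-1, also had 0% in both.

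The median score of these peaks lay above the middle of each list. The score is the authors' own, its definition is not given, and it ranks peaks within a list only. The median peak at a member lay at percentile 67.8 of replicate 1, 79.4 of replicate 2 and 75.1 of the series-wide list. Peaks meeting any protein-coding gene had medians of 50.9, 51.5 and 51.4. Member peaks were found through genes, which favours wide peaks, and the scores were not weighted for this. In the top 25% by score were 11 of the 36 member peaks of replicate 1, 27 of the 49 of replicate 2 and 46 of the 92 of the series-wide list. The range was wide: the 28771 bp peak over npp-6 in replicate 1 had a score of 54.0, at percentile 1.44, although it covered the whole gene. Its replicate 2 counterparts, of 21262 and 3106 bp, lay at percentiles 78.9 and 74.7.

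Where only 1 replicate had a peak, that peak usually covered most of the gene. A peak in 1 replicate only was found at 11 members, or 26.8% of the 41, against 9.4% of all genes. Taken over genes marked in either replicate, the shares were close, at 11 of 40 members (27.5%) and 27.8% of all genes. Replicate 2 alone marked npp-7, npp-11, npp-27, ima-3, imb-2, xpo-3 and ran-4, or 17.1% of members, against 3.64% of all genes. Replicate 1 alone marked npp-9, npp-14, npp-18 and ran-1, or 9.76%, against 5.76%. Over all genes replicate 1 alone thus marked more than replicate 2 alone, the reverse of the members. In 10 of the 11 the replicate with the peak covered at least 50% of the span, and in 7 of these the whole of it. The exception was imb-2, at 46.0%. A cover of at least 50% held for 56.6% of all genes marked in 1 replicate only. The nearest peak of the other replicate was 8096 to 43466 bp away for the 7 and 3559 to 22349 bp away for the 4. These gaps and the covered stretches were all longer than 200 bp, so moving all peaks by 200 bp either way could not change these calls. Each of the 11 had at least 1 flanking gene with the same split, covered in the same replicate only. At npp-9, npp-11, npp-14, npp-27, ima-3, xpo-3 and ran-1 the genes on both sides had it. Beside npp-18, pgm-2 had it, while F56A8.8 had 100% in replicate 1 and 1.6% in replicate 2. The gene npp-27 lies between cbpl-1 and ntl-4, and all 3 had 0% in replicate 1 and 100% in replicate 2. Beside imb-2, npp-7 and ran-4, the flanking genes acr-20, pamn-1 and daf-8 had 0% in both replicates. The series-wide list met all 11, covering 40.2% to 100% of their spans, and it met 77.0% of all genes marked in 1 replicate only. That list is not known to be independent of the replicates. The 3 such genes of IV were all unmarked in replicate 1, the 3 of III all in replicate 2, and the 4 of I were divided. All genes of these chromosomes did not lean that way. On IV replicate 1 marked 32.7% and replicate 2 30.4%, and on III 46.8% and 49.5%. On IV, npp-27 and xpo-3 had the same nearest replicate 1 peak, at 7942998 to 7954624, so they are not separate observations. The part of depth, calling and chromatin in the differences between replicates was not tested.

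The gene without peaks, npp-26, is 3235 bp long and lies on IV. No list had a peak over it, but its nearest peaks ended close by. They were at bases 4755727 to 4763818 in replicate 1, 4757480 to 4764286 in replicate 2 and 4756676 to 4763501 in the series-wide list, 904, 436 and 1221 bp from the span. It was thus just outside a region that all 3 lists called. The gene npp-27 has no role given here.

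Other genes of the nuclear envelope, of mRNA export and of the SUMO modifier, listed with earlier results of these data known, were also largely marked. Of 20 such genes, both replicates marked 15, where 24.4% of all protein-coding genes were marked. The list was picked by hand, and its difference from other genes was not tested. The lamin gene lmn-1, the emerin gene emr-1, the chromatin tether baf-1 and the SUMO gene smo-1 were covered to 100% in both replicates, as were the export factors nxf-2 and nxt-1. The mRNA exporter gene nxf-1 had 100% and 85.4%, and it shared its peaks with nxf-2. The SUMO protease gene ulp-1 had 0% in replicate 1 and 92.5% in replicate 2. Genes that link the nucleus to the cytoskeleton were among the listed ones. The gene sun-1 had 100% in replicate 1 and 66.4% in replicate 2, and its partner zyg-12 had 100% in both. In each replicate zyg-12 shared its peak with the SUMO protease gene ulp-2, so these are not separate observations. The genes unc-83, unc-84 and anc-1, which move or anchor nuclei, met no peak in any of the 3 lists, and unc-84 is on X. The nucleoporin gene mel-28, the worm ELYS, met no peak in either replicate, yet the series-wide list covered it to 100% with a peak at bases 4782859 to 4797398 of III.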

How the data were processed

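MRG-1 ChIP-seq peak lists of 2 ChIP replicates and of the whole series were analysed. The submitters' processing notes name BWA and ce10. Per the file headers, peak positions are 1-based on WormBase WS220; the source column names MACS for the 2 replicates and MACS v2 for the series-wide list. Thresholds, input use and pooling: not given in the sources used here. The deposited score of each peak was made by the authors, has no stated definition and was used only to rank peaks within a list. In replicates 1 and 2, 554 and 272 peaks share the score 3100, and ties took their mean rank.

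Gene spans and symbols came from a RefSeq table on WBcel235 that gives no strand and no sequence. Coverage is the percent of a span under at least 1 peak, compared base by base with a second count on simulated peaks as a check. The middle of a chromosome is the middle 50% of base 1 to the last peak end. Python 3.11.15, numpy 2.4.6, pandas 2.3.3 and matplotlib 3.10.9 were used. The members and lists were chosen with earlier results of these data known. Values were given in full for members marked in neither or 1 replicate, those with the highest and lowest cover, the Ran cycle genes and the importin alphas; flanking genes named were chosen after their values were seen. Windows at both span ends replaced the planned gene start, for want of strand, and promoter motifs were not run. Alternatives changed the spans, the overlap needed, the peaks by score, the list and the replicates.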

Additional observations from a re-analysis of the deposited data

How the results depend on the processing

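Of the 41 members, 29 were marked in both replicates. Both replicates marked 24.4% of all genes. The count of members ranged from 26 (at least 50% covered, and top 50% of peaks by score) to 40 (series-wide list). The share of all genes was 17% under each rule that gave 26, and 32.7% with the series-wide list. The count of members was 36 without replicate 1 (28.1% of all genes) and 33 without replicate 2 (30.2%). The share of all genes thus moved with the rule too. The falls to 26 stayed within 1.5 times. A rise of more than 1.5 times was not possible with 41 members, so the rises do not test stability. Leaving out a replicate can only raise a count that needs both. The series-wide list needs 1 list where the main count needs 2. Spans lengthened or shortened by 200 bp, and peaks moved by 200 bp either way (added after the data were seen), changed no member's call. The smallest gap from an unmarked member to a replicate peak was 436 bp, at npp-26, so these settings could add no call. The count marked in neither was 1, against 66.2% of all genes. It became 4 at a cover of at least 50% (74.3% of all genes) and 4 with the top 50% of peaks by score (71.7%). It was 5 without replicate 1 (71.9%) and 8 without replicate 2 (69.8%). Fewer peaks or a stricter rule leave more genes unmarked by construction. The median cover of 97.5% ranged from 94.96% to 100% without 1 replicate and moved by less than the spread between replicates elsewhere. Both span ends were met in 21 members, against 14.7% of all genes. The series-wide list met them in 32 (22.1% of all genes), but it needs 1 list where the main count needs 2. Other alternatives gave 18 to 30 members, against 10.0% to 20.3% of all genes. With the top 50% of peaks by score, 7 members had lower mean cover by more than their replicate spread. Of the members marked in both replicates, npp-6, npp-10 and imb-1 lost a call. For members marked in 1 replicate only, the replicate spread is larger than the mean cover, so no fall there could count among the 7. Of these members, npp-14, ran-1 and imb-2 lost all cover under this setting. The planned gene start windows and promoter motifs were not run, as no strand or sequence was at hand. No paired analysis was possible because values exist here for 1 group alone, the ChIP samples. Depth is unknown, so how many unmarked genes deeper sequencing would reach is unknown.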
